A study of Homo sapiens with 2 samples.

Results

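Long noncoding RNAs and transcribed pseudogenes with introns were read in RNA-seq of HCT116 cells, in 1 library labelled USP49 knockdown and 1 labelled control. The set held the RefSeq transcripts with an NR_ accession on chromosomes 1 to 22 that were in both libraries' files, with 2 or more exons and 300 or more exonic bases. None of them shares an exact intron with a protein-coding (NM_) transcript of its strand. The symbols starting SNHG, and GAS5 and ZFAS1, were left out. This gave 2719 transcripts of 2159 genes, among 23920 RefSeq genes on chromosomes 1 to 22, X and Y, of which 19149 were protein-coding. Of the 2159 genes, 1412 are now annotated as lncRNA, 532 as transcribed pseudogenes, 120 as protein-coding and 95 have no current entry that matched.

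HCT116 is a human colorectal carcinoma cell line. Both libraries came from HCT116 cells with a tetracycline-inducible construct against USP49, grown with blasticidin and puromycin. One library was labelled USP49 knockdown, harvested 36 h after doxycycline, and 1 was labelled control. The protocol text on doxycycline is the same for both libraries, and whether the control RNA came from uninduced cells is not stated for RNA. The labels do not say whether the line was 1 clone. With 1 library per group there was no replicate, so no p-value was computed, and every interval below covers counting error only.

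USP49 is a deubiquitinase that removes ubiquitin from histone H2B and has been linked to co-transcriptional splicing. Spliced long noncoding RNAs are made by RNA polymerase II, capped and mostly polyadenylated like mRNA, but carry no long conserved reading frame. They are known for low levels, for starting often from a promoter shared with a protein-coding gene on the opposite strand, and for hosting small RNAs in their introns or exons. They are spliced by the same machinery as mRNA.

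For sequence, the promoters of 3 members and the mature miRNAs made from 5 host RNAs are shown, all from RefSeq on GRCh38.p14. Among the 320 members at or above 1 FPKM, 165 matched a promoter of 300 bases, which runs 250 bases upstream and 50 bases downstream of the gene start. Capitals mark the GC box GGGCGGG, the ETS site CCGGAAG or the TATA box TATAAA on either strand. The promoter of DANCR, the member with the highest level, is at chr4:52712144-52712443 on the plus strand. That of THAP9-AS1, at chr4:82900867-82901166 on the minus strand, belongs to the highest member that starts head to head with a protein-coding gene, THAP9. That of CCDC18-AS1, at chr1:93345762-93346061 on the minus strand, is shown because CCDC18-AS1, head to head with DR1, is one of the members with no fragment on its strand in the knockdown library.
DANCR: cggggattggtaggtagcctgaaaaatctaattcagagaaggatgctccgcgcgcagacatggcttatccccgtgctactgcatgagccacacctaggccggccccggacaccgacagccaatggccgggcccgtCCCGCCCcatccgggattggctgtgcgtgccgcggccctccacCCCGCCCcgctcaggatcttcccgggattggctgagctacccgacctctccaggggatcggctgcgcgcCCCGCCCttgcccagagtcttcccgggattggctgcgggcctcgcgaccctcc
THAP9-AS1: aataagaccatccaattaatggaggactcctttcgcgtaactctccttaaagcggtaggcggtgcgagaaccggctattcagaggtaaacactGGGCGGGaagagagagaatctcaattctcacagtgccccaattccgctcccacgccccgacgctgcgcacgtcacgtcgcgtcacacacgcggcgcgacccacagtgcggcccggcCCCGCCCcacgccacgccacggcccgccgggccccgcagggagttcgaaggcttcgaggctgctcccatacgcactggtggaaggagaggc
CCDC18-AS1: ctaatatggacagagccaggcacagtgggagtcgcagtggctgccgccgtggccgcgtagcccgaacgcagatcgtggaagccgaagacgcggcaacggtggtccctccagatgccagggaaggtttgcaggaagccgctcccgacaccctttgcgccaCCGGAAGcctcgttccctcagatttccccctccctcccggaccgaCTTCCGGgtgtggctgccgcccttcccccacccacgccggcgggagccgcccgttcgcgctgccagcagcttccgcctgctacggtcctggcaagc

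The miRNA hosts are shown because several of them carry families with 1 shared seed, and DLEU2 and MIR100HG are among the members with large ratios below. Capitals mark the seed, bases 2 to 8. DLEU2 carries miR-15a and miR-16 and MIR17HG carries the miR-17 to miR-92a cluster, with its seed families miR-17 and miR-20a and miR-19a and miR-19b. MIR100HG carries miR-100, let-7a and miR-125b, MIRLET7BHG carries let-7a and let-7b, and MIR22HG carries miR-22.
hsa-miR-15a-5p: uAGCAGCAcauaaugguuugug
hsa-miR-16-5p: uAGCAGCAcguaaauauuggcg
hsa-miR-17-5p: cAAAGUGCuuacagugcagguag
hsa-miR-20a-5p: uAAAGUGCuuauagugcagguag
hsa-miR-18a-5p: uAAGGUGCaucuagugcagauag
hsa-miR-19a-3p: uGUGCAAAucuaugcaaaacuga
hsa-miR-19b-3p: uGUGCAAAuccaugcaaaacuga
hsa-miR-92a-3p: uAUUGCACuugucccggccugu
hsa-let-7a-5p: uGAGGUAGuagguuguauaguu
hsa-let-7b-5p: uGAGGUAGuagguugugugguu
hsa-miR-100-5p: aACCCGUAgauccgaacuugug
hsa-miR-125b-5p: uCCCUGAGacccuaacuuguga
hsa-miR-22-3p: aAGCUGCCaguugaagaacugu

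The deposited values were not divided by depth. The recovered depth was 19961338 fragments in the knockdown library and 16378323 in the control library, and all FPKM below (fragments per model length and library depth) are scaled to these totals. Intervals of FPKM are symmetric about the summed value and cut at 0. Their width on each side is the root of the summed squares of the deposited distances from value to upper bound. Each model of a gene adds 1 such distance, scaled in the same way. A log2 ratio is that of the knockdown value plus 1 FPKM over the control value plus 1 FPKM, and a ratio after depth is that of the fragments divided by each total. USP49 had 1.10 FPKM by the sum over its models in the knockdown library (interval 0.839 to 1.37), against 2.88 FPKM in the control library (2.41 to 3.36). On its RefSeq exons, its density was 1.10 FPKM in the knockdown library and 0.907 FPKM in the control library. The check of the label thus went in opposite directions under the 2 measures, so the samples are called by their labels. The epithelial markers EPCAM, with 148 FPKM in the knockdown library and 155 FPKM in the control library, KRT8, KRT18 and CDH1 were present. VIL1, CDX1 and the leukocyte marker PTPRC were listed at 0 in both libraries. CD3E, PECAM1 and ALB were at 0.114 FPKM or less in each library. COL1A1, with 7.77 FPKM in the knockdown library and 10.4 FPKM in the control library, and VIM, with 8.92 FPKM in knockdown and 9.79 FPKM in control, were present.

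Spliced noncoding RNAs were much less abundant than protein-coding genes. In a bulk library, fewer cells with an RNA and less RNA per cell cannot be told apart. A mean of 1 FPKM or more over both libraries was reached by 320 of 2159 members (14.8%), against 10850 of 18275 protein-coding genes on chromosomes 1 to 22 (59.4%). Among genes at that level, the median was 2.92 FPKM for members and 16.1 FPKM for protein-coding genes. At least 10 FPKM was reached by 43 members (13.4% of those measured) and by 7043 protein-coding genes (64.9%). Both libraries listed 0 for 1183 members (54.8%) and for 4063 protein-coding genes (22.2%). All models of members together took 0.397% of the fragments in the knockdown library and 0.444% in the control library.

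Members were also shorter and had fewer exons. The median longest transcript had 1842 bases and 4 exons in members, against 2702 bases and 8 exons in protein-coding genes. Genes with 2 exons made up 16.5% of members and 5.98% of protein-coding genes. By class, 174 of 1412 lncRNAs (12.3%), 98 of 532 transcribed pseudogenes (18.4%) and 30 of 120 genes now called protein-coding (25%) were measured. Median levels over both libraries were 2.78 FPKM for lncRNAs, 2.85 FPKM for pseudogenes and 4.53 FPKM for the genes now called protein-coding. The last class holds RNAs first annotated as noncoding whose short reading frames are now listed as genes, such as SMIM26 and SMIM30, which encode small integral membrane proteins. Fragments of a transcribed pseudogene and of its parent gene can be exchanged, so levels of pseudogenes are uncertain.

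**Figure D1:**
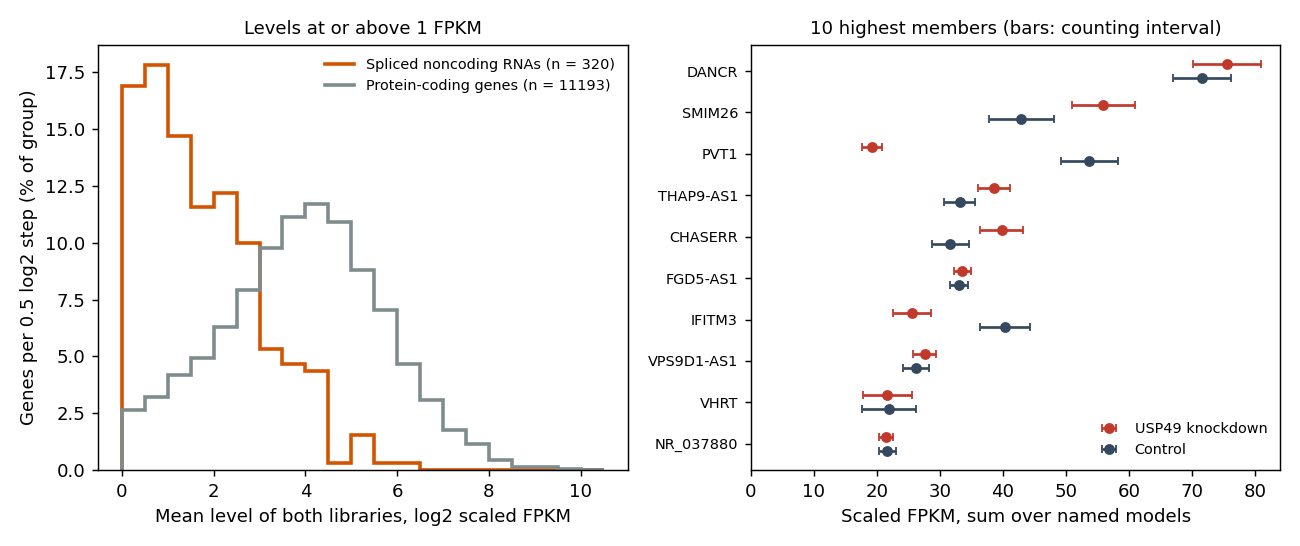
Left, the share of measured members (orange) and measured protein-coding genes (grey) in steps of 0.5 on a log2 scale of mean scaled FPKM. Right, the 10 members with the highest mean level in USP49 knockdown (red) and control (blue), with horizontal bars for the counting interval. The members peak at the low end of the scale and protein-coding genes higher, and PVT1 is the one member of the 10 whose 2 points differ by more than 2-fold.

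The gene with the highest level was DANCR, a lncRNA that keeps progenitor cells undifferentiated and hosts small nucleolar RNA, at chr4:53273378-53275062. DANCR had 75.5 FPKM in the knockdown library (interval 70.2 to 80.9) and 71.6 FPKM in the control library (66.9 to 76.2). THAP9-AS1, antisense to the transposase-derived gene THAP9, had 38.6 FPKM in the knockdown library and 33.1 FPKM in the control library. FGD5-AS1 had 33.6 FPKM in the knockdown library and 33.1 FPKM in the control library. CHASERR, which lies upstream of the chromatin remodeller CHD2 and limits its level, had 39.8 FPKM in knockdown and 31.7 FPKM in control.

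By the sum, log2 ratios of these 4 members were 0.08, 0.21, 0.02 and 0.32 in the order given. With RefSeq models only, they were -1.002 for DANCR, -0.41 for THAP9-AS1, 0.02 for FGD5-AS1 and -0.65 for CHASERR. SMIM26 had 56.0 FPKM in the knockdown library and 42.9 FPKM in the control library, a log2 ratio of 0.37, and 0.06 by density on its exons. VPS9D1-AS1, VHRT and the unnamed NR_037880 had between 21.5 and 27.6 FPKM in the knockdown library and between 21.7 and 26.2 FPKM in the control library, and their log2 ratios lay between -0.02 and 0.07. IFITM3, an interferon-induced membrane protein that restricts virus entry, carried an NR_ transcript and had 25.7 FPKM in the knockdown library, against 40.3 FPKM in the control library. Its log2 ratio was -0.63 by the sum and -0.49 on its exons, and it has near-identical neighbours, so its level is uncertain.

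PVT1, a lncRNA beside MYC that is often amplified with it, had 19.2 FPKM in the knockdown library (interval 17.7 to 20.8) and 53.7 FPKM in the control library (49.3 to 58.2). The intervals did not overlap, and the log2 ratio was -1.44. In the control library, a 4-exon assembled model of 726 bases named for PVT1 held 501 fragments. In the knockdown library, a 3-exon assembled model of 451 bases with no gene name held 565 fragments on part of the same exons. Counted over the exons that the models of either library cover, PVT1 had 1195 fragments in the knockdown library and 926 in the control library. The ratio after depth was 1.06 (95% interval 0.971 to 1.16).

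The same count over a shared footprint was made for every gene. The footprint is the union of a gene's RefSeq exons and the exons of all models named for it in either library. Fragments of any model of that strand, or of no strand, were divided evenly over that model's bases, named for the gene or not. This density does not depend on which library named a model, but it still rests on where each library's models lie. Where a member shares exonic bases with a coding gene on its strand, the footprint also counts that gene's fragments.

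By the sum over named models, 13 members were 2-fold or more higher in the knockdown library and 32 were 2-fold or more lower, of 320 measured (14.1%). Over all 11751 genes measured, 3.8% passed 2-fold, 1.77% higher and 2.03% lower. Of these genes 11193 were protein-coding, and 2.92% of those passed. Among genes now annotated as lncRNA, 13.2% of 174 members passed, against 13.1% of all 237 such genes, members included. The larger share in members was thus not particular to them among lncRNAs. The median log2 ratio was -0.05 for members and -0.002 for all genes. On the shared footprint, 3 members were higher and 17 lower of 365 (5.48%), against 1.73% of all genes, 0.768% higher and 0.962% lower. On the RefSeq exons with models of the same strand, 2 were higher and 17 lower of 363 (5.23%), against 1.62% of all genes, 0.677% higher and 0.943% lower. With models of either strand, 3 were higher and 12 lower of 481 (3.12%), against 1.33% of all genes, 0.555% higher and 0.774% lower. Of the 106 members whose fragments lay on the same introns in both libraries, none passed 2-fold by the sum in either direction, against 0.535% of all such genes, 0.134% higher and 0.401% lower. Of these, 100 lay within 0.5 on the log2 scale by the sum. Models with the same introns mostly take the same name in both libraries, and the 30 members listed at 0 in 1 library were outside this set. The lack of large ratios in it thus partly follows from how models were named. On the footprint, OIP5-AS1 and EPB41L4A-AS1 were past 2-fold although their introns were the same in both libraries.

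**Figure D2:**
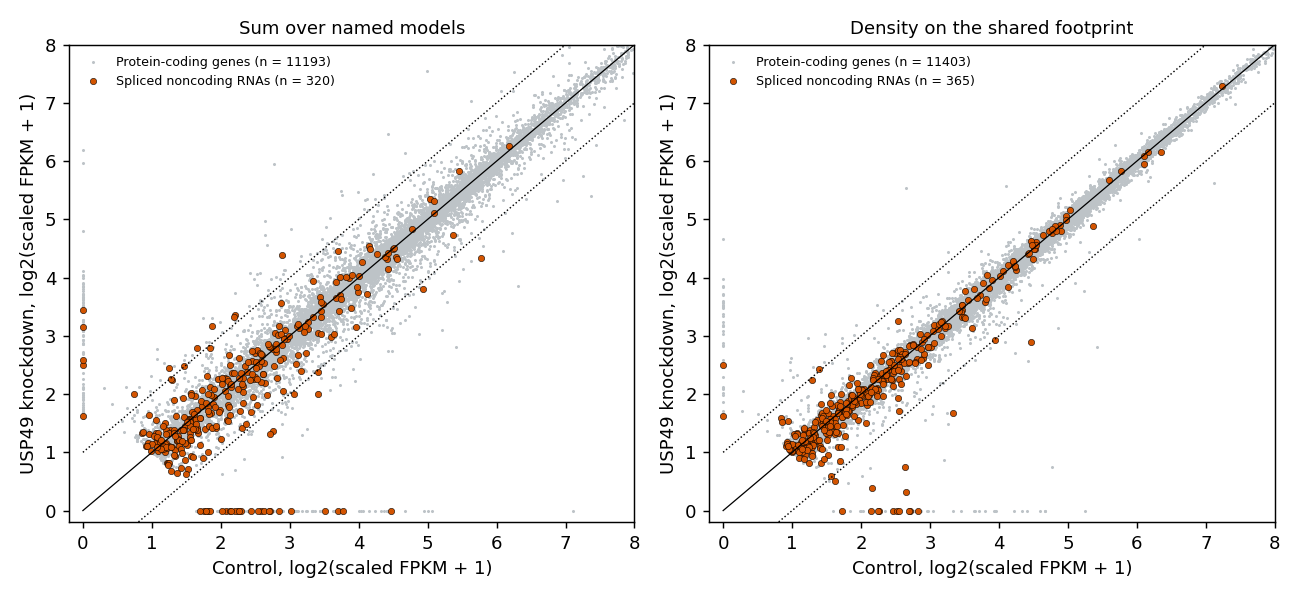
Level in USP49 knockdown against control on a scale of log2(scaled FPKM + 1), by the sum over named models (left) and by density on the shared footprint (right), for members (orange) and protein-coding genes (grey). Solid lines mark equality and dotted lines 2-fold. Members lie nearer to the line on the right, and those on the bottom edge are listed at 0 in the knockdown library.

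Most of the large ratios belonged to members listed at 0 in 1 library. Of the 320 measured members, 25 were listed at 0 in the knockdown library and 5 in the control library (9.38% together), against 2.16% of all measured genes. These 30 made up most of the 45 members past 2-fold. All 45 had intervals that did not overlap, as did 3.49% of all genes together with a 2-fold ratio. A member listed at 0, such as HOXA10 in the knockdown library, had an interval from 0 to 0 there. For the 30 listed at 0, the lack of overlap thus largely followed from the listing. Of the 45, 31 lay within 0.5 on the footprint, and 13 passed 2-fold there in the same direction. None of the 45 had the same introns in both libraries. For the 30 listed at 0 in 1 library this largely followed from the naming, since models with the same introns mostly take the same name. Among protein-coding genes, 162 of 11193 (1.45%) were also listed at 0 in 1 library, the ribosomal protein genes RPS27A and RPL17 included, so a 0 is given as listed and not as absence.

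DLEU2, TMEM147-AS1, LOC155060 and LINC00339 were listed at 0 in the knockdown library by the sum, while their footprints held fragments in both libraries. DLEU2, a host of miR-15a and miR-16 in a region lost in chronic lymphocytic leukaemia, had 0 FPKM in the knockdown library by the sum and 12.0 FPKM in the control library. On its footprint it had 328 fragments in the knockdown library and 347 in the control library, a ratio after depth of 0.776 (0.665 to 0.905). The control value lay on an assembled model of 1806 bases, of which 176 were on its RefSeq exons. The knockdown fragments lay mostly on an unspliced model of no strand with 410 fragments in all. With models of its strand or of no strand, density on its RefSeq exons was 0.615 FPKM in the knockdown library and 0.759 FPKM in the control library. TMEM147-AS1 had 0 FPKM in the knockdown library and 10.4 FPKM in the control library. On its footprint it had 1022 fragments in the knockdown library and 979 in the control library. In the knockdown library these lay on a model of its strand without introns and without a gene name, which held 1200 fragments in all.

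LOC155060, a transcribed pseudogene, had 7.07 FPKM in the control library by the sum, and 1116 footprint fragments in the knockdown library against 1081 in the control library. LINC00339 had 5.53 FPKM in the control library by the sum, and 163 footprint fragments in the knockdown library against 128 in the control library. Footprint log2 ratios of these 4 members lay between -0.30 and 0.06. Thus none of the 4 passed 2-fold on the footprint.

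The mirror image was seen among members listed at 0 in the control library. PSMA3-AS1, named for the proteasome subunit gene PSMA3 on the other strand, had 9.93 FPKM in the knockdown library and was listed at 0 in the control library. Its footprint held 1858 fragments in the knockdown library and 1534 in the control library, a ratio after depth of 0.994 (0.928 to 1.06). Its control fragments lay on a model with 1 exon more and no gene name. LINC00641 had 4.64 FPKM in the knockdown library and was listed at 0 in the control library, and its footprint had 527 fragments in the knockdown library and 356 in the control library. The knockdown value lay on a RefSeq model of 1 exon and 5425 bases, and its spliced RefSeq transcript was listed at 0 in both libraries. The control models over its exons were named for HNRNPC, with 1439 and 732 fragments in all. A further HNRNPC model with 2296 fragments covered them in the knockdown library.

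ABCA11P, a pseudogene of the ABC transporter family, had 7.84 FPKM in the knockdown library and was listed at 0 in the control library. Its footprint had 314 fragments in the knockdown library and 146 in the control library, a ratio of 1.76 (1.45 to 2.16), below 2-fold. Its exons were in control part of an unnamed 5-exon model of 8780 bases. PLEKHM1P1, a pseudogene of a lysosomal adaptor, had 2.09 FPKM in the knockdown library and was listed at 0 in the control library. Its footprint had 216 fragments in knockdown and 230 in control, a ratio of 0.771.

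For SMIM30, RPL32P3 and ARHGAP27P1-BPTFP1-KPNA2P3, both libraries had values, with the knockdown library higher by the sum. SMIM30 had 19.9 FPKM in the knockdown library (interval 17.5 to 22.3) and 6.38 FPKM in the control library (4.85 to 7.90), a log2 ratio of 1.50. A further 198 control fragments lay on an unspliced model without a gene name. Its footprint log2 ratio was 0.22. RPL32P3 and ARHGAP27P1-BPTFP1-KPNA2P3 had 1.26 and 1.31 by the sum and -0.05 and 0.12 on the footprint.

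**Figure D3:**
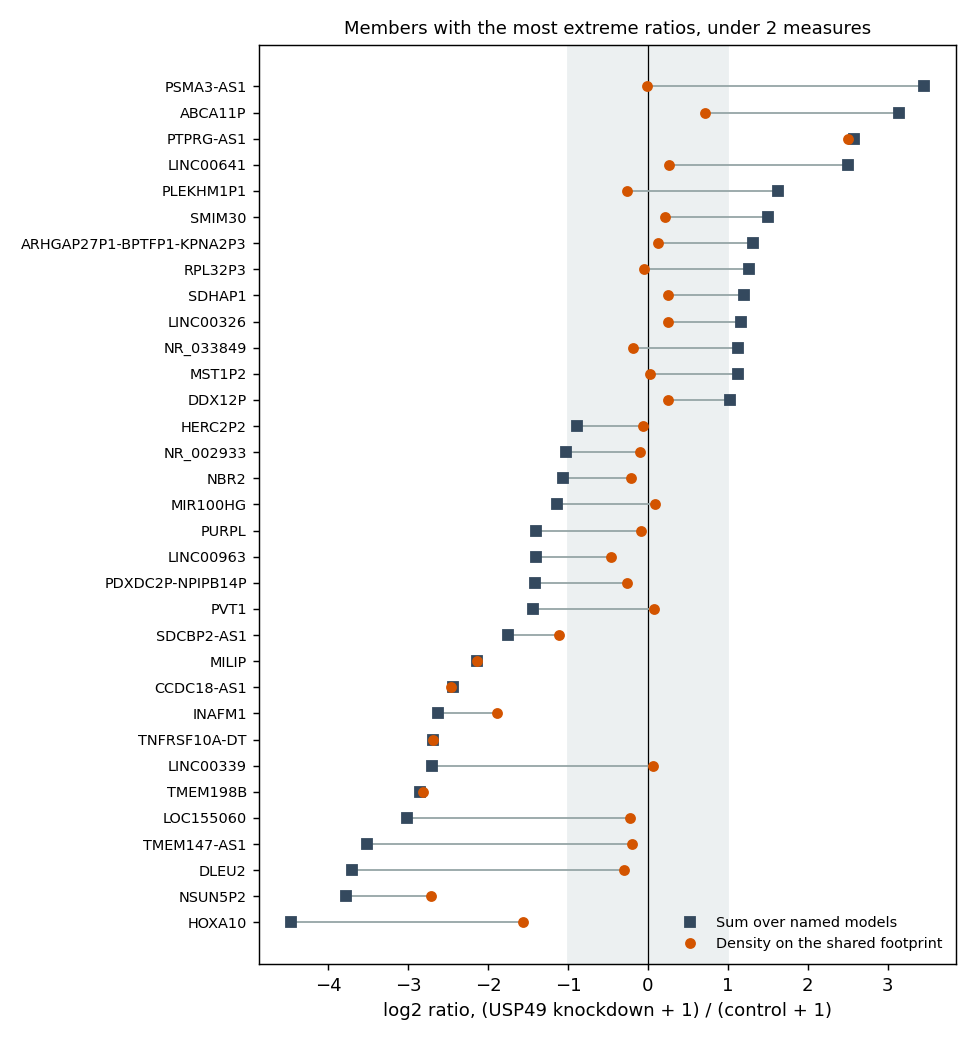
The log2 ratio of USP49 knockdown over control for the members with the most extreme values, by the sum over named models (squares) and by density on the shared footprint (circles). The shaded band is under 2-fold. Most circles lie inside the band, while those of HOXA10, NSUN5P2, TMEM198B, TNFRSF10A-DT, INAFM1, CCDC18-AS1, MILIP, SDCBP2-AS1 and PTPRG-AS1 stay outside it.

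A smaller group kept a 2-fold ratio both by the sum and on the exons of either strand. It held HOXA10, NSUN5P2, TMEM198B, CCDC18-AS1, INAFM1, MILIP and SDCBP2-AS1, lower in the knockdown library, and PTPRG-AS1, higher. HOXA10, a homeobox gene of the posterior HOXA cluster with an NR_ transcript, was listed at 0 in the knockdown library by the sum and had 21.1 FPKM in the control library. Its footprint had 278 fragments in the knockdown library and 743 in the control library, a ratio of 0.307 (0.267 to 0.353). In the knockdown library these were the part that fell on its last exon from an unnamed 4-exon model of 8566 bases with 1506 fragments. That model ran on downstream of HOXA10 over the neighbouring HOXA9, and no such model was in the control library.

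TMEM198B, a pseudogene that starts 28 bases from the start of DNAJC14 on the other strand, had 6.19 FPKM and 522 fragments in the control library. The knockdown library held no fragment on its strand. CCDC18-AS1, head to head with DR1, had 4.44 FPKM in the control library, on 84 fragments of its RefSeq model and 134 of an assembled one, and none on its strand in the knockdown library. MILIP had 103 fragments in the control library, all on its RefSeq model of 1895 bases, and none on its strand in the knockdown library. In the knockdown library the models over these 3 members lay on the opposite strand, at DNAJC14, at DR1, and for MILIP on a 10-exon model with no gene name. They covered only 29 of 3502 exonic bases of TMEM198B, 88 of 4033 of CCDC18-AS1 and 71 of 1895 of MILIP. With models of either strand, 17, 14 and 4 knockdown fragments fell on their exons, in the same order.

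NSUN5P2, a pseudogene of an RNA methyltransferase gene, had 230 fragments on its strand in the control library and none in the knockdown library. There, a model of the neighbour POM121 on the opposite strand covered 1056 of its exonic bases and had 427 fragments in all. INAFM1 had 10 footprint fragments in the knockdown library and 62 in the control library. SDCBP2-AS1 had 22 in the knockdown library and 90 in the control library. PTPRG-AS1, antisense to a receptor tyrosine phosphatase, had 4.97 FPKM and 514 fragments in the knockdown library and was listed at 0 in the control library. The control model of PTPRG on the opposite strand had 1480 fragments and 9224 bases, and ended at base 62258276. The knockdown models of PTPRG had 970 and 212 fragments and ended at 62255807 and 62255613. The knockdown model of PTPRG-AS1 reached base 62258319, so the control PTPRG model lay over more of its span.

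Members with 100 or more fragments on exons of their strand in 1 library and none in the other were counted for all genes too. In the knockdown library none were seen for 8 of 192 such members (4.17%), against 0.432% of all genes. In the control library none were seen for 1 of 201 members (0.498%), against 0.335% of all genes. The 8 were CCDC18-AS1, FAM201A, MILIP, NSUN5P2, SCAND2P, TMEM198B, TNFRSF10A-DT and UBA6-DT, and the 1 was PTPRG-AS1. On exons of either strand, the log2 ratio was -0.08 for TNFRSF10A-DT, -0.13 for SCAND2P, -0.35 for FAM201A and -0.90 for UBA6-DT, all below 2-fold, and past 2-fold for the other 4 of the 8. As no strand-marking step is described for these libraries, fragments of a member and of a gene overlapping it on the other strand cannot be told apart. FAM201A, SCAND2P and UBA6-DT were named after their values were seen.

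**Figure D4:**
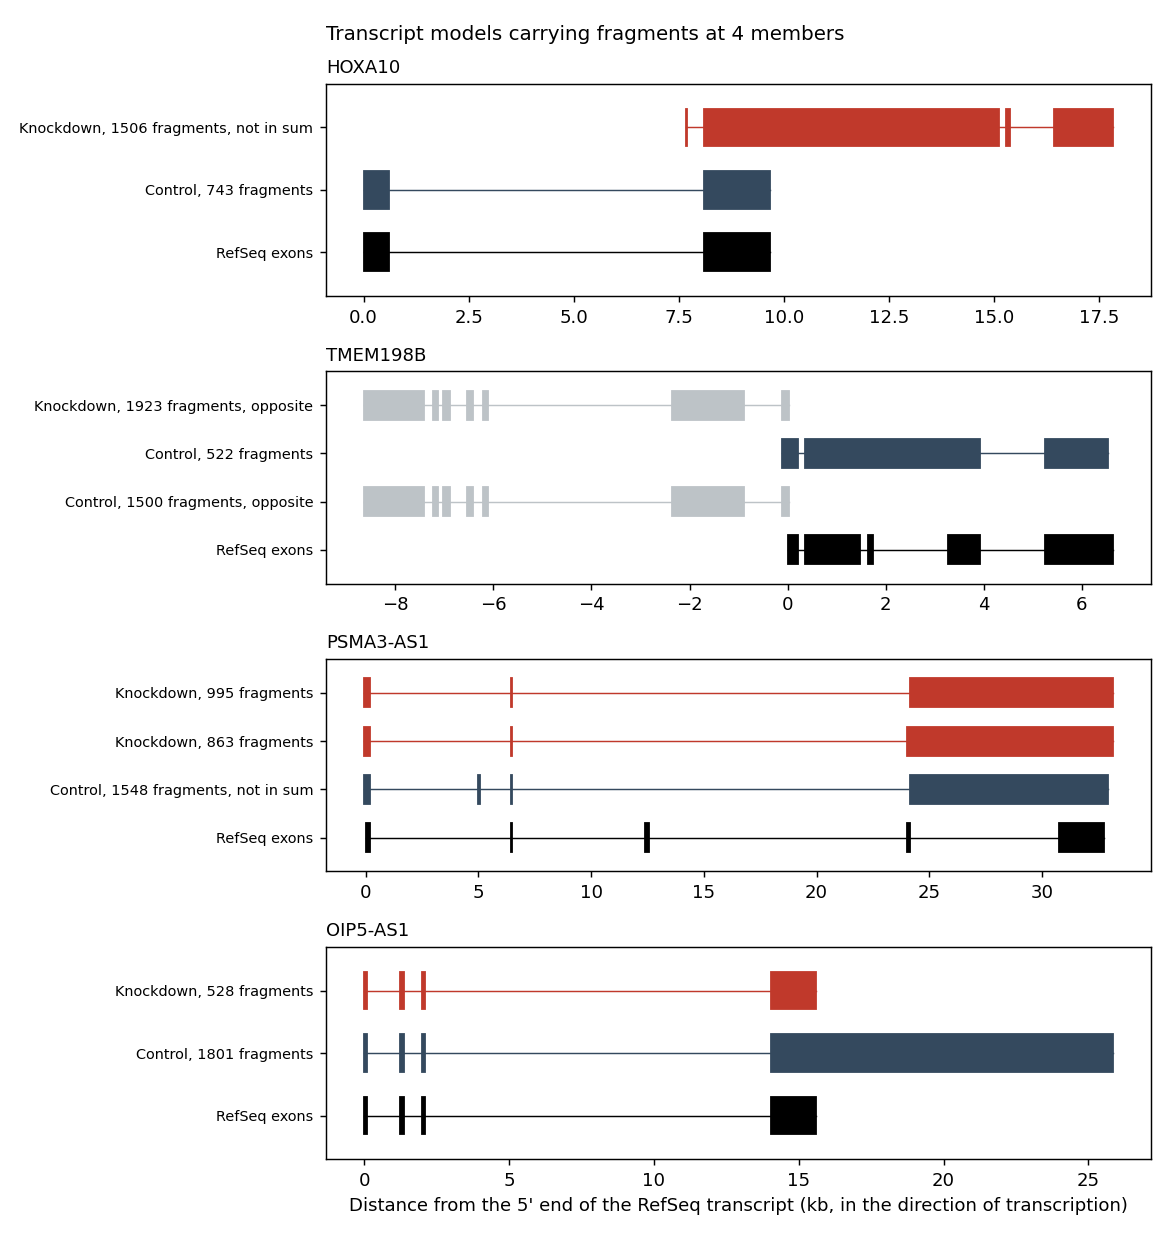
Transcript models with 10 or more fragments at 4 members, as distance in kb from the 5′ end of the RefSeq transcript, in USP49 knockdown (red), control (blue) and the RefSeq exons (black), with models of the opposite strand in grey. Boxes are exons and lines introns, and the label gives each model's fragments. HOXA10 and PSMA3-AS1 are carried by a differently spliced model in the 2 libraries, TMEM198B has no model of its strand in knockdown, and OIP5-AS1 ends later in control.

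Footprints with 10 or more fragments in each library gave a stricter count. Of 350 members, 1 was higher and 5 lower by 2-fold (1.71%), against 0.503% of all genes, and 330 lay within 0.5. The lower ones were EPB41L4A-AS1, HOXA10, MELTF-AS1, OIP5-AS1 and SDCBP2-AS1, and the higher one LINC01089. For OIP5-AS1, a lncRNA known to bind the RNA-binding protein HuR, the RefSeq model of 1894 bases had 528 fragments in the knockdown library. In the control library an assembled model with the same introns, 12168 bases long, had 1801 fragments. Its FPKM was 14.3 in the knockdown library and 9.07 in the control library, a log2 ratio of 0.60, while the footprint gave -1.66. The 2 measures thus had opposite signs, and the extended last exon carried no model in the knockdown library apart from that of OIP5 on the other strand, at its end. EPB41L4A-AS1, a host of a small nucleolar RNA, had 19.5 FPKM in the knockdown library and 22.3 FPKM in the control library. Its footprint had 448 fragments in knockdown and 798 in control, and in the control library a model of 3436 bases ran past its RefSeq end. In the knockdown library, an unspliced model with 197 fragments and an EPB41L4A model with 303 spanned that stretch on the opposite strand. The footprint leaves these out. On the RefSeq exons of EPB41L4A-AS1, the log2 ratio was -0.20 with models of its strand and -0.15 with models of either strand. MELTF-AS1 and LINC01089 were named after their values were seen.

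By the sum with 10 or more fragments on named models in each library, 8 members were higher and 7 lower of 288 (5.21%), against 1.61% of all genes, 0.777% higher and 0.829% lower. The lowest were PVT1, PDXDC2P-NPIPB14P, LINC00963, PURPL, MIR100HG, NBR2, NR_002933 and HERC2P2, with log2 ratios between -1.44 and -0.88. On the footprint the same 8 members lay between -0.46 and 0.09. The highest were SMIM30, ARHGAP27P1-BPTFP1-KPNA2P3, RPL32P3, SDHAP1, LINC00326, NR_033849, MST1P2 and DDX12P, with 1.02 to 1.50 by the sum and -0.18 to 0.25 on the footprint. Among these 16 members none passed 2-fold on the footprint.

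For members with the same introns in both libraries, models can still differ in their ends, as those of OIP5-AS1 and EPB41L4A-AS1 did. With 30 or more fragments in both libraries together there were 102, and 96 of them lay within 0.5. Those named here were chosen after their values were seen. CIDECP1, a pseudogene of a lipid droplet protein gene, had 3.71 FPKM in the knockdown library (interval 2.72 to 4.70) and 1.45 FPKM in the control library (0.768 to 2.14), with the same single RefSeq model in each. These values rest on 56 fragments in the knockdown library and 18 in the control library, a ratio after depth of 2.55 (1.48 to 4.61). Its log2 ratio with the pseudocount was 0.94.

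ZNF407-AS1 had 1.79 FPKM in the knockdown library and 4.13 FPKM in the control library, -0.88 on the log2 scale, and -0.18 on the footprint. DLEU1, the neighbour of DLEU2, had 21.0 FPKM in the knockdown library and 12.1 FPKM in the control library, 0.75, and -0.10 on the footprint. Among the 91 members whose models had the same introns and lengths within 10%, 88 lay within 0.5 and none passed 2-fold by the sum.

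Hosts of miRNAs were read as spliced, polyadenylated RNA. Mature miRNAs were not measured. Of the 40 RNAs in the list of hosts, 22 were members and 8 were measured, with 0 higher and 2 lower by the sum, where 1.77% of all genes were higher and 2.03% lower. The 2 were DLEU2 and MIR100HG. DLEU1 and MIR4435-2HG are in the list, but no miRNA gene was found within them on their strand. By position, 12 measured members held a miRNA gene. They included PVT1 and PLEKHM1P1, outside the list, with log2 ratios of -1.44 and 1.63 by the sum and 0.08 and -0.27 on the footprint. MIR100HG had 13.0 FPKM in the knockdown library (interval 11.8 to 14.2) and 29.7 FPKM in the control library (27.9 to 31.5). On its footprint it had 3037 fragments in the knockdown library and 2344 in the control library, a ratio after depth of 1.06 (1.01 to 1.12). A further 3-exon model without a gene name held 1276 fragments in the knockdown library, which the sum does not count.

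MIR17HG had 2.44 FPKM in the knockdown library and 2.78 FPKM in the control library, with 229 footprint fragments in knockdown and 211 in control. MIR22HG had 2.89 FPKM in the knockdown library and 4.52 FPKM in the control library by the sum, and its footprint had 265 fragments in knockdown and 193 in control, a ratio of 1.13 (0.932 to 1.36). MIRLET7BHG had 1.68 FPKM in the knockdown library and 2.65 FPKM in the control library, and MIR4435-2HG had 4.16 FPKM in knockdown and 3.57 FPKM in control. The intervals of MIR17HG, MIRLET7BHG and MIR4435-2HG overlapped between libraries. H19, an imprinted RNA that hosts miR-675, had 41 fragments in the knockdown library and 53 in the control library, a ratio of 0.635 (0.412 to 0.973). Of the 14 imprinted RNAs among the members, H19 was the only one measured, and 11 were listed at 0 in both libraries.

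Nuclear and chromatin lncRNAs showed small differences on the footprint. Of 8 members of that list, 4 were measured and 0 passed 2-fold by the sum, with a median log2 ratio of 0.13. TUG1, which binds chromatin regulators, had 10.1 FPKM in the knockdown library and 13.8 FPKM in the control library, and its footprint had 3171 fragments in knockdown and 2456 in control, a ratio of 1.06. LINC-PINT, a p53-induced lncRNA, had 5.39 FPKM in the knockdown library and 3.35 FPKM in the control library, 0.56 on the log2 scale, and 0.00 on the footprint. HOTAIRM1, in the HOXA cluster, had 3.83 FPKM in knockdown and 4.0 FPKM in control.

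Of the 9 members linked to p53 and DNA damage, 6 were measured, with 0 higher and 2 lower by the sum, against 1.77% and 2.03% of all genes. The lower ones were PVT1 and PURPL, a p53-regulated RNA, whose footprint log2 ratios were 0.08 and -0.08. PURPL had 1.49 FPKM in the knockdown library and 5.55 FPKM in the control library by the sum. Its footprint had 1451 fragments in the knockdown library and 1275 in the control library. LINC00467 had 11.4 FPKM in the knockdown library and 12.4 FPKM in the control library, with intervals that overlapped.

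Of the 34 cancer-linked members, 10 were measured, with 0 higher and 1 lower by the sum, against 1.77% and 2.03% of all genes. The lower one was PVT1, which was 0.08 on the footprint. UCA1, first described in bladder cancer, had 7.02 FPKM in the knockdown library and 6.97 FPKM in the control library. CYTOR had 8.03 FPKM in knockdown and 7.62 FPKM in control, LINC00460 7.73 FPKM in knockdown and 8.59 FPKM in control, and LINC00857 2.57 FPKM in knockdown and 2.69 FPKM in control. The intervals of these 4 overlapped between libraries. CRNDE, which is raised in colorectal tumours, had 4.71 FPKM in the knockdown library and 7.56 FPKM in the control library, and its footprint ratio was 0.748 (0.568 to 0.985). CASC2, FEZF1-AS1, LINC00511 and TINCR lay between -0.51 and 0.20 by the sum and between -0.13 and -0.04 on the footprint. HOTAIR, MIAT and HULC were among the 24 that were not measured.

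Of the 5 small nucleolar RNA hosts outside the SNHG names, 4 were members and 2 were measured, DANCR and EPB41L4A-AS1. The list of RNAs linked to decay and translation had 4 members, all measured, with a median of 0.32 by the sum and 0.04 on exons of either strand. On the footprint, OIP5-AS1 had -1.66, EPB41L4A-AS1 -1.01, DANCR -0.01 and LINC-PINT 0.00.

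Head-to-head position was common among measured members. A start within 1000 bases of the start of a protein-coding gene on the other strand was found for 399 of 2159 members (18.5%), and for 99 of the 320 measured (30.9%). Of the head-to-head members 24.8% were measured, against 12.6% of the others. In 90 pairs both genes were measured, and in 78 of them the protein-coding partner had the higher level. The median distance between the starts was 144.5 bases, and the median partner level was 5.87 times that of the member. FGD5-AS1, with its partner NR2C2 at 8.49 FPKM, and AFG3L1P, with CENPBD1 at 2.40 FPKM, were members with a higher level than the partner and were named after their values were seen.

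Of the members in these pairs, 13 passed 2-fold by the sum, and 2 of the 90 partners did, against 3.8% of all genes and 2.92% of protein-coding genes. On exons of either strand, none of the partners passed 2-fold. By that measure, 1 of all 99 measured head-to-head members was 2-fold higher and 4 were lower. Of all genes measured on exons, 0.555% were higher and 0.774% lower. DR1, the partner of CCDC18-AS1, had 53.1 FPKM in the knockdown library and 45.8 FPKM in the control library. DNAJC14, the partner of TMEM198B, had 29.4 FPKM in knockdown and 27.9 FPKM in control. TMEM147, the partner of TMEM147-AS1, had 106 FPKM in the knockdown library and 101 FPKM in the control library. Each of these 3 partners thus kept its level within 2-fold while its member was listed at 0 in knockdown by the sum. On exons of either strand, log2 ratios of the members were -2.23 for CCDC18-AS1, -2.54 for TMEM198B and -0.18 for TMEM147-AS1, the last below 2-fold. BRCA1, the partner of NBR2, had 18.0 FPKM in knockdown and 17.8 FPKM in control. The 2 partners past 2-fold by the sum were CENPBD1, listed at 0 in the knockdown library and at 4.80 FPKM in the control library, and NUP50, with 8.28 FPKM in knockdown and 23.3 FPKM in control. On exons their log2 ratios were -0.19 and -0.09.

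**Figure D5:**
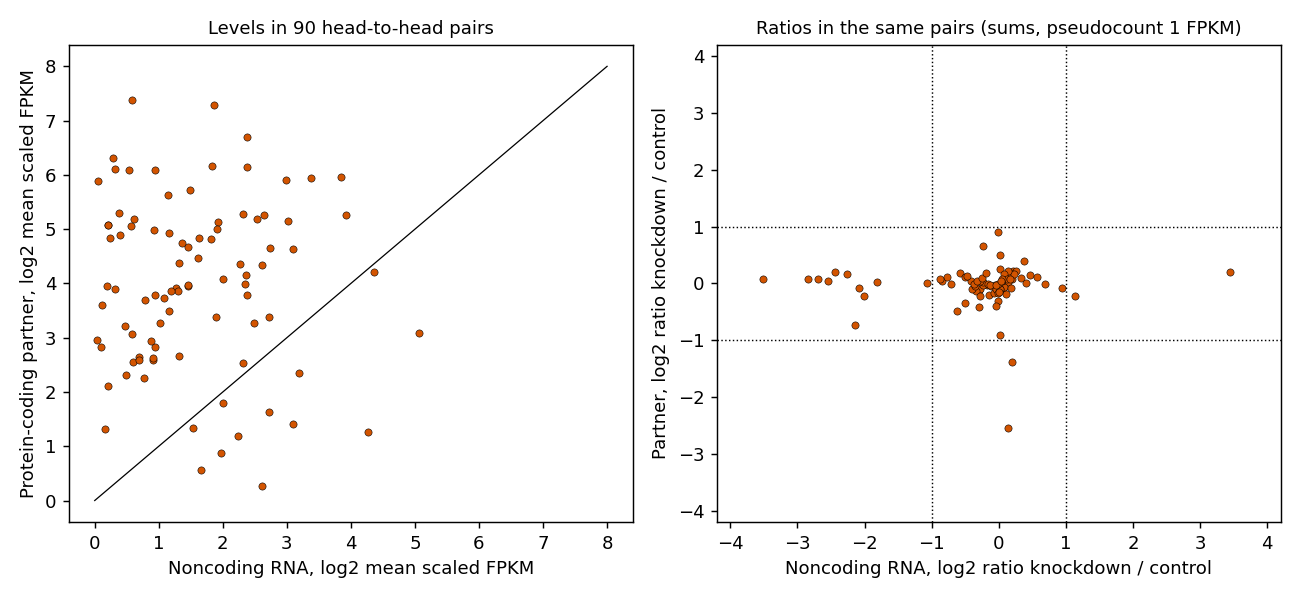
Left, the mean level of the protein-coding partner against that of the member in 90 head-to-head pairs, in log2 scaled FPKM, with the line of equality. Right, the log2 ratio of USP49 knockdown over control of partner against member for the same pairs, with dotted lines at 2-fold. Of the 90 partners, 78 lie above the line on the left, and members spread more widely than partners on the right.

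The promoters of measured members resembled those of protein-coding genes in base composition. A ratio of observed to expected CpG of 0.6 or more was found in 68.5% of the 165 promoters of measured members, in 35.2% of 957 promoters of the other members and in 67.3% of 14962 promoters of protein-coding genes. Over all 27305 promoters of the table it was 49.0%. Among measured members it was 85.5% for 69 head-to-head genes, whose promoter region is partly that of a coding gene, and 56.2% for 96 others. The ETS site CCGGAAG was in 20.6% of promoters of measured members, 7.21% of the other members, 14.5% of protein-coding genes and 10.7% of all promoters. The GC box GGGCGGG was in 46.7%, 20.6%, 45.5% and 32.9% in the same order, and the TATA box TATAAA in 8.48%, 12.0%, 9.40% and 11.9%. Both strands were searched, a GC box can overlap another, and the promoters are of current gene starts, which can differ from those of the hg18 models.

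By position, 1462 members lay outside coding genes and 227 of them were measured (15.5%). An exon antisense to a coding exon was found for 366 (56 measured, 15.3%), an exon overlapping a coding exon of the same strand for 83 (16 measured, 19.3%), and 248 lay inside or across a coding gene with no shared exonic base (21 measured, 8.47%). By the sum, 29 of the 227 outside coding genes, 8 of the 56 antisense, 4 of the 16 same-strand and 4 of the 21 inside passed 2-fold. Without members that share an exonic base with a coding transcript, 11 were higher and 22 lower of 248 (13.3%), against 3.72% of all genes, 1.76% higher and 1.95% lower.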

How the data were processed

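Poly(A) RNA was read in 1 library labelled USP49 knockdown and 1 labelled control. The authors deposited Cufflinks assemblies per library with a value named FPKM per model, per the file headers. The deposited value was treated as a score, since it was not divided by depth. Per the submitters' processing notes, Cufflinks, TopHat, Bowtie, SAMtools, Picard and bedtools were used with hg18; no source used here gives their versions. Gene coordinates are 1-based hg18.

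In loci with 1 model, the interval of the value ± 2 Poisson SD gave whole fragments, within 0.02, for 93.2% of loci in knockdown and 93.5% in control. Fragments of other models followed from the value times length − 47 bases, with corrections of 252.2 bases in knockdown and 245.9 in control for unspliced assembled models, and values were scaled to the totals. The plan had taken the values as FPKM, so this step departs from it. Transcripts were named by RefSeq accession (2529), GENCODE 29 (77) or the symbol in the files (60), and 53 had no symbol. An assembled model took the name of the 1 symbol it shared an intron with.

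Ratios are log2 of values plus 1 FPKM, which understates low genes. Named were the 10 highest members, the 8 highest and 8 lowest ratios with 30 or more fragments (also with fragments in both libraries), list members at 1 FPKM or more, members past 2-fold by sum and exons, and those with a printed sequence. Members and lists were chosen with earlier results of these data known. Ratio intervals are exact binomial at 95% and cover counting error only, as PCR copies are not independent molecules. Footprint fragments are shares of each model's fragments, rounded to whole numbers. Their intervals leave out the error of that division and of the assembly. One result is not reported here. Steps were tested on simulated data. Python 3.11.15, pandas 2.3.3, numpy 2.4.6 and scipy 1.17.1 were used.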

Additional observations from a re-analysis of the deposited data

How the results depend on the processing

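No paired analysis was possible because each group had 1 library. By the sum over named models 13 members were 2-fold higher and 32 lower. The count of higher members was 20 without scaling to depth, 4 at a minimum of 5 FPKM, 26 with no minimum, 2 on exons of the same strand, 3 on exons of either strand and 0 with the same introns. The count of lower members was 9 at a minimum of 5 FPKM, 17 on exons of the same strand, 12 of either strand and 0 with the same introns. The other planned settings kept both counts within 1.5 times. The remaining alternatives were chosen after seeing the data: 10 or more fragments in each library (8 higher, 7 lower), genes now annotated as lncRNA (4 and 19 of 174, 13.22%, against 13.08% of all 237 genes so annotated), the shared footprint (3 and 17), and the same introns with lengths within 10% (0 and 0).

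The median of all genes was 0.26 without scaling and -0.14 with equal sums of values. These log2 ratios, past 2-fold by the sum, reversed sign. With RefSeq models only, PVT1 gave 1.06, NR_002933 1.71, ARHGAP27P1-BPTFP1-KPNA2P3 -1.87 and LINC00326 -2.20. On exons of the same strand and of either strand, PVT1 gave 0.36, LINC00339 0.057, RPL32P3 -0.18, PLEKHM1P1 -0.27, PSMA3-AS1 -0.016, MIR100HG 0.087 and NR_033849 -0.18, and MST1P2 gave -0.15 and -0.21. On the footprint, PVT1 gave 0.081, LINC00339 0.057, RPL32P3 -0.046, PLEKHM1P1 -0.27, PSMA3-AS1 -0.0085, MIR100HG 0.087 and NR_033849 -0.18. The part of model assembly in these changes was not tested. With 1 library per group, the spread between cultures is unknown, and members near 1 FPKM rest on few fragments.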
